A study of Mus musculus with 12 samples.

Results

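The comparison described here set mouse embryonic fibroblasts labelled TAZKo against fibroblasts labelled WT, both after 24 hours of hypoxia. It took 6 of the series' 12 samples, chosen by their labels alone: 3 libraries labelled TAZKo and 3 labelled WT. All 12 samples are cultured embryonic fibroblasts of the C57BL/6 strain. The other 6 samples are the same genotypes, 3 libraries each, kept in normoxia. They entered the fit and are used below only to show where the hypoxia difference departs from the normoxia difference. TAZKo denotes cells that lack tafazzin, and the WT cells are described in the series' design text as isogenic. The labels state neither how the gene was disrupted, nor whether the TAZKo cells are 1 clone, nor the oxygen level. They also do not say whether libraries of a group came from separate cultures, so p-values measure the spread between these libraries, which may be technical.

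Tafazzin, encoded by Taz, is a mitochondrial transacylase that remodels cardiolipin, the signature phospholipid of the inner mitochondrial membrane. Its loss in people causes Barth syndrome, a disease of heart and skeletal muscle. In low oxygen, prolyl hydroxylases stop marking the HIF alpha subunits for degradation through the von Hippel-Lindau protein, and the stabilised HIF dimer switches on genes of glucose uptake, glycolysis and pH control. Oxygen is also consumed directly in making cholesterol and unsaturated fatty acids, 2 lipid pathways controlled by the SREBP transcription factors.

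RNA was sequenced and the authors deposited whole-number counts per gene. The 6 hypoxia libraries held 21039451 to 30174667 counts each, mitochondrial transcripts took 1.23 to 1.45% of them, and 3 counts were worth 0.0994 to 0.143 CPM (counts scaled to a fixed library total). Levels are given as CPM with TMM scaling, a trimmed mean that adjusts library sizes, and CPM is not corrected for gene length, so levels are compared between samples and never between genes. A log2 difference is TAZKo minus WT, with its standard error (SE). A gene is called when its adjusted p from edgeR's quasi-likelihood test across all 14408 tested genes is under 0.05. On the first principal component, with 73.7% of the variance of the 6 libraries, the genotypes lay apart. The second, with 10.5%, set WT hypoxia sample 1 at 25.3 against -13.9 and -12.1 for the other WT libraries. Results that rest on this library are also given without it. With all 12 libraries, WT normoxia sample 1 lay at 35.7 on the third component, against -12.8 and -13.4 for the other WT normoxia libraries. It enters the shared spread, and without it 6149 genes were called in hypoxia instead of 4723. Normoxia differences of gene lists, and their changes between conditions, are given below with WT normoxia sample 1 included. The fibroblast genes Vim, Pdgfra and Dcn were read in every hypoxia library, whereas Lum and Twist1 had no counts and Thy1 was near the floor of 3 counts. The 12 fibroblast markers summed to 6585 to 7530 CPM in WT and 5216 to 5595 CPM in TAZKo libraries. Of the 9 tested, 4 were called higher and 2 lower: Col1a1 averaged 3605 CPM in WT and 1376 CPM in TAZKo, whereas Vim averaged 2948 and 3412 CPM. The 6 epithelial markers summed to 315 to 345 CPM in WT and 255 to 258 CPM in TAZKo, nearly all from the keratins Krt14, called lower (200.3 and 133 CPM on average), and Krt18, not called (126 and 123 CPM), while Epcam and Cdh1 had at most 10 counts in a library. The 6 macrophage markers summed to 19.3 to 24.3 CPM in WT and 16.5 to 18.7 CPM in TAZKo: Ptprc and Adgre1 had at most 1 count, Csf1r was called lower and Lyz2 higher, and Cd68 (7.38 and 6.53 CPM) and Cd14 (9.46 and 8.13 CPM) were not called. The 5 neural and glial markers summed to 2.35 to 2.87 CPM in WT and 2.67 to 2.86 CPM in TAZKo, with Map2 called lower (0.551 and 0.231 CPM on average). All 5 endothelial markers together came to 14.5 to 20.5 CPM in WT and 3.89 to 5.05 CPM in TAZKo. Nearly all of it came from Tek and Kdr, both called lower, with Pecam1, Cdh5 and Tie1 at or near 0. Of the skeletal muscle markers 4 of 5, of the adipocyte markers 4 of 5 and of the pluripotency markers 3 of 4 were at or under the floor in all 6 libraries. The adipocyte marker above it, Fabp4 (3.09 CPM on average in WT and 0.947 CPM in TAZKo), was called lower, as was Nanog (1.96 and 1.22 CPM). Of the 5 sex-linked markers 4 were at or under the floor in all 6 libraries. The other, Xist, had 1 to 7 counts, and 0 of the 5 were tested. The part of these marker differences in the results below was not tested, and in bulk RNA fewer cells of a type and less RNA per cell cannot be told apart.

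Taz itself (ENSMUSG00000009995, chromosome X, 74281912 to 74290151, plus strand, GRCm38) was not reduced in the libraries labelled TAZKo. It stood at 25.5, 26.4 and 23.5 CPM in the WT libraries and at 33.6, 32.8 and 35.1 CPM in the TAZKo libraries. The log2 difference was 0.43 with an SE of 0.08 (edgeR adjusted p = 0.00112). The 2 sets of libraries did not overlap, and the direction was the opposite of a lost transcript. Counts over the whole gene do not show whether the transcript encodes a working enzyme. The directions below therefore rest on the labels, and TAZKo and WT mean the libraries so labelled. Wwtr1, whose protein is the unrelated transcriptional coactivator also called TAZ, was at 297, 304 and 299 CPM in WT and 262, 291 and 265 CPM in TAZKo libraries, a log2 difference of -0.14 ± 0.10 that did not pass the test (edgeR adjusted p = 0.337).

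The genotypes differed at 4723 of 14408 tested genes, or 32.8%. Of these, 2283 (15.8%) were higher in TAZKo and 2440 (16.9%) were lower. Most differences were small: the median absolute log2 difference of called genes was 0.43, and 839 genes (5.82%) were also at least 2-fold apart, 293 higher and 546 lower. The large differences were mainly decreases. Called genes at least 2 log2 units apart numbered 38 higher and 219 lower, and at least 3 units apart 9 higher and 122 lower. The 3 and 3 libraries did not overlap at 7207 genes (50%), so lack of overlap by itself separates few genes from the rest.

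**Figure D1:**
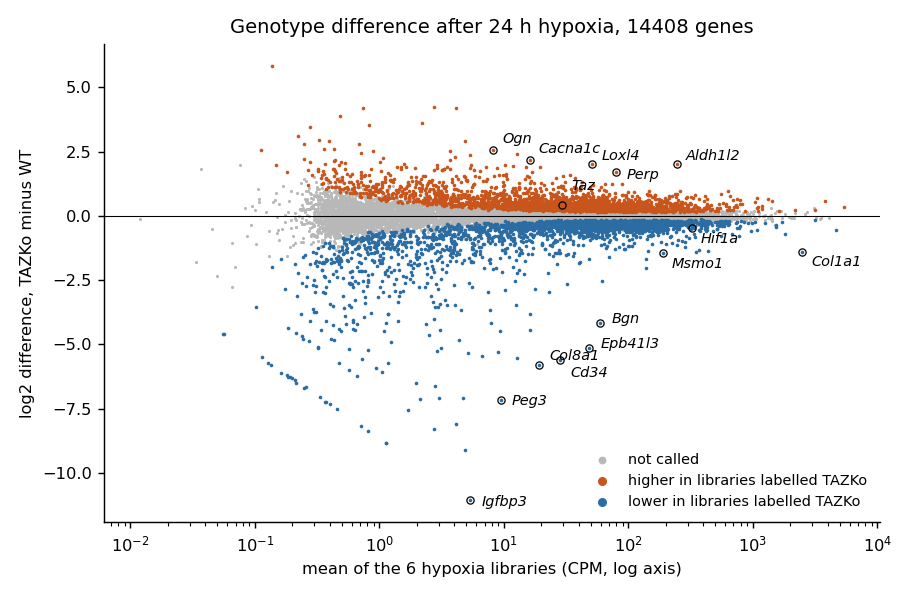
Log2 difference (TAZKo minus WT) of each of 14408 tested genes after 24 h hypoxia against its mean over the 6 hypoxia libraries (CPM, log axis); orange points were called higher and blue points lower, grey points were not called, and labelled rings are genes given in the text. Decreases reach much further than increases: 122 called genes lie at or below -3 and 9 at or above 3, and the fitted value of Igfbp3, which had no counts in TAZKo, is not a bound on its fold.

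Cholesterol synthesis genes were lower in TAZKo fibroblasts in hypoxia. The list of 24 genes of the pathway and its control was, like the other lists, chosen with earlier results of these data known. All 23 tested members were called lower (100% against 16.9% of all tested genes called lower). Their median log2 difference was -1.09, against -0.01 over all tested genes, and 12 of the 23 were at least 2-fold lower. No member was called higher by edgeR or DESeq2, and 0 were higher at an unadjusted p under 0.05. The 3 TAZKo libraries lay below the 3 WT libraries at each of the 23 genes, while the groups did not overlap at 50% of all tested genes. The same genes were less far apart in normoxia, where 13 were called lower and the median was -0.31. The difference between the conditions was itself called at 15 of 23, always further down in hypoxia.

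The promoters of 4 of these genes are shown to let the pathway's common promoter element be seen, the CCAAT box bound by the factor NF-Y that acts beside SREBP. Each is the 250 bases before a RefSeq transcription start on GRCm38.p6, written 5′ to 3′ on the gene's strand. Capitals mark CCAAT, or ATTGG where the box lies on the other strand, and in Hmgcs1 also TCACCCCAC, a match to the sterol regulatory element motif.
Hmgcs1: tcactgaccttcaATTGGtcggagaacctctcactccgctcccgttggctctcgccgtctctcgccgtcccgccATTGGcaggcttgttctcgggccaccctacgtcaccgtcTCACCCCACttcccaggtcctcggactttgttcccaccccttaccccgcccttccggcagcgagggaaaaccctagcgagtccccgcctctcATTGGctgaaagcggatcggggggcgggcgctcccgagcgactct
Cyp51: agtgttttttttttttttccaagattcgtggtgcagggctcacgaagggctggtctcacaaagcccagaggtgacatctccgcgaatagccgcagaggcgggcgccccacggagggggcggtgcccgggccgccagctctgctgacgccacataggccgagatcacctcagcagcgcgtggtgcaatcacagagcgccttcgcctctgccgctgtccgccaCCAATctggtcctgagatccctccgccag
Idi1: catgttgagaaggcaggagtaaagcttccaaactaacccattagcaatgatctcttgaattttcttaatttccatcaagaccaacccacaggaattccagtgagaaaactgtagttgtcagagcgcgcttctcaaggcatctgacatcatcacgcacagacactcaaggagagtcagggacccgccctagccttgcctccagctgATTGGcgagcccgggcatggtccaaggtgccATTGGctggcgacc
Mvd: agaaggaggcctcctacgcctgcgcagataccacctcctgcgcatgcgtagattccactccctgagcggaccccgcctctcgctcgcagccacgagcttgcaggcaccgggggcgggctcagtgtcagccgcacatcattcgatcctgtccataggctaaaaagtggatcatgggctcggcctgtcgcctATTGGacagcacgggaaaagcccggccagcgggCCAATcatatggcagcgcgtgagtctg
Hmgcs1 is on chr13:119690101-119690350 (plus strand), Cyp51 on chr5:4104698-4104947 (minus strand), Idi1 on chr13:8885356-8885605 (plus strand) and Mvd on chr8:122443423-122443672 (minus strand). RefSeq windows were found for 16 of the pathway's genes, 19 windows in all. CCAAT, searched on both strands, was in at least 1 window of 16 of 16 genes and in 84.2% of the windows, against 33.9% of 32851 promoter windows of all genes. TCACNCCAC, also on both strands, was in 1 of the 19 windows and in 1.05% of all windows. These are matches of letters, not measured binding sites.

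The early steps condense acetyl units into mevalonate. Hmgcs1, the HMG-CoA synthase of that route, stood at 289.5, 466 and 449 CPM in the WT libraries and 159, 186 and 169 CPM in the TAZKo libraries, a log2 difference of -1.23 ± 0.16 (edgeR adjusted p = 6.82e-05). WT sample 1 was the lowest WT library and still lay above all TAZKo libraries. The kinases and the decarboxylase that follow differed by -0.59 ± 0.10 (Mvk), -0.84 ± 0.09 (Pmvk) and -1.28 ± 0.09 (Mvd). Idi1, which isomerises the 5-carbon building block, had the largest difference of the list, from 5.503, 9.38 and 10.01 CPM in WT to 2.96, 2.802 and 3.24 CPM in TAZKo (-1.48 ± 0.19, edgeR adjusted p = 6.43e-05).

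The middle steps join isoprenoid units into squalene and close the sterol rings. Fdft1, squalene synthase, was at 132, 143 and 137 CPM in WT and 57.2, 63.9 and 60.5 CPM in TAZKo (-1.18 ± 0.06, edgeR adjusted p = 1.43e-08). Sqle, the squalene epoxidase that uses molecular oxygen, was at 522, 595 and 586 CPM in WT and 373, 406 and 366 CPM in TAZKo, a smaller difference of -0.57 ± 0.07 (edgeR adjusted p = 3.38e-05). Its normoxia difference was 0.03, and the change between the conditions was called (-0.60, edgeR adjusted p = 0.00554). Lss, the cyclase that makes lanosterol, had the same form, -0.82 in hypoxia against 0.01 in normoxia. It stood at 380.2, 469 and 469 CPM in WT and 242, 268 and 237 CPM in TAZKo hypoxia libraries.

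The late steps strip methyl groups and reduce double bonds. Cyp51, the oxygen-consuming lanosterol demethylase, was at 523, 680.4 and 669.9 CPM in WT and 235, 257 and 240.03 CPM in TAZKo (-1.35 ± 0.10, edgeR adjusted p = 2.57e-07). Msmo1, the methylsterol monooxygenase (ENSMUSG00000031604, chromosome 8, 64718139 to 64733792), was at 233, 297 and 301 CPM in WT and 99.7, 106 and 96.04 CPM in TAZKo (-1.46 ± 0.11, edgeR adjusted p = 3.24e-07). Tm7sf2, a sterol reductase, was at 19.1, 21.3 and 21.5 CPM in WT and 7.19, 6.95 and 8.36 CPM in TAZKo (-1.46 ± 0.12, edgeR adjusted p = 1.02e-06). At all 3 genes the groups lay far apart beside their own spread. The reductase Dhcr7 (-0.93), of the last steps, was also lower, as was the isomerase Ebp (-0.34).

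Genes that control synthesis were lower too. Insig1, which holds the SREBP precursor in the endoplasmic reticulum and is itself a sterol-regulated gene, was at 172, 231 and 230.3 CPM in WT and 96.9, 108 and 89.7 CPM in TAZKo (-1.11 ± 0.11). Srebf2, which encodes the pathway's main transcription factor, was at 640.01, 614 and 659.7 CPM in WT and 532, 573 and 535 CPM in TAZKo, the smallest difference of the list (-0.22 ± 0.06, edgeR adjusted p = 0.0104). The groups did not overlap at any of these genes, as at 50% of all tested genes. WT hypoxia sample 1 was the lowest WT library at 21 of the 23 genes, and without it 23 were still called lower. Idi1 shares 21.3% and Fdft1 10.85% of their 50-base words with other transcripts, and Fdps overlaps another gene on its own strand over 26.7% of its exons. Hmgcs1 and Fdft1 overlap antisense genes over 12.1% and 18.3% of their exons. The counts of Idi1, Fdft1, Fdps and Hmgcs1 are therefore less certain.

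**Figure D2:**
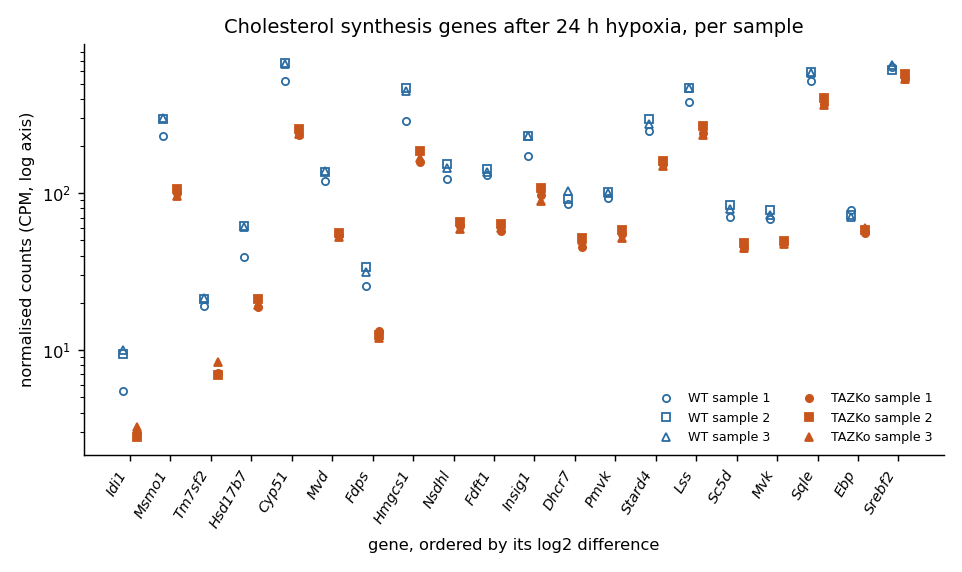
TMM-scaled counts (CPM, log axis) of 20 of the tested genes of the cholesterol synthesis list in each of the 6 hypoxia libraries, ordered by log2 difference; open blue symbols are WT and filled orange symbols TAZKo, and the shape gives the sample number. At every gene the 3 TAZKo libraries lie below the 3 WT libraries, and WT sample 1 (circle) is the lowest WT library at 18 of the 20 genes drawn.

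Fatty acid synthesis and desaturation, the SREBP-1 arm of the same system, was also lower. This list was chosen after the cholesterol values had been seen. Of 17 tested genes 13 were called lower and 0 higher by edgeR (1 higher at an unadjusted p under 0.05; 12 lower and 0 higher by DESeq2), with a median of -0.48, against 16.9% of all tested genes called lower. Elovl6, which elongates palmitate, was at 113, 129.98 and 128 CPM in WT and 55.6, 56.97 and 62.2 CPM in TAZKo (-1.09 ± 0.09, edgeR adjusted p = 1.22e-06). Acss2, which makes cytosolic acetyl-CoA from acetate, was at 31.8, 34.01 and 35.3 CPM in WT and 16.7, 17.7 and 16.2 CPM in TAZKo (-1.0 ± 0.08). Acss2 was the reverse in normoxia, where it was higher in TAZKo (0.24, edgeR adjusted p = 0.0454), and its change between the conditions was called (-1.24, edgeR adjusted p = 0.00016). The desaturases, which like Sqle use oxygen, were lower as well: Fads2 (-0.92), Scd2 (-0.53), Fads1 (-0.52) and Scd1 (-0.36). Fads2, Scd2, Fads1 and Scd1 all lie on chromosome 19, whose tested genes had a median of -0.282, and 8 of 11 members of the list off chromosomes 8, 10, 18 and 19 were called lower. Fasn, the fatty acid synthase, was at 825, 867 and 928 CPM in WT and 610.1, 655 and 607 CPM in TAZKo (-0.48 ± 0.07).

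Sterol export and storage genes, also listed afterwards, showed no common direction. The list joins targets of the sterol-sensing LXR receptors with sterol export genes. Of its 11 tested genes, 1 was higher and 4 were lower (45.5% called, against 32.8% of all genes). Abca1, the cholesterol exporter, was the higher one, at 50.5, 45.6 and 49.02 CPM in WT and 67.02, 67.1 and 63.9 CPM in TAZKo (0.45 ± 0.12, edgeR adjusted p = 0.00896). Scarb1, the lipoprotein receptor (-0.42), Npc1, which releases cholesterol from lysosomes (-0.37), the cholesterol esterifying enzyme Soat1 (-0.28) and Lpcat3 (-0.25) were lower.

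**Figure D3:**
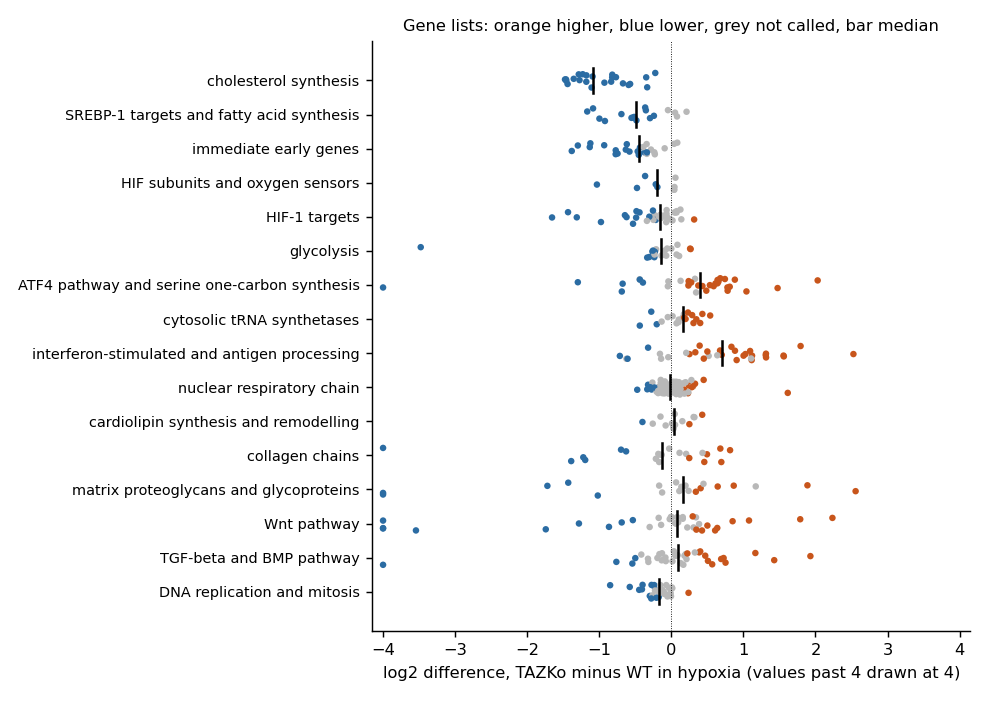
Log2 differences (TAZKo minus WT in hypoxia) of the tested members of 16 gene lists; each point is a gene, orange called higher, blue called lower, grey not called, the bar is the list's median, and values past 4 are drawn at the edge. Cholesterol synthesis has all 23 members to the left of 0 with a median of -1.09, while the interferon list has its median at 0.70 and the ATF4 list at 0.40.

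The oxygen sensing system differed mainly in subunits and sensors that were lower in TAZKo. Of 9 tested genes, 5 were lower and 0 higher by edgeR, as by DESeq2 and at an unadjusted p under 0.05, against 16.9% of all tested genes called lower. Without TAZKo hypoxia sample 1, 3 were lower. Hif1a (ENSMUSG00000021109, chromosome 12, 73901375 to 73947530) was at 370.2, 382 and 383 CPM in WT and 264, 273 and 279 CPM in TAZKo (-0.48 ± 0.14, edgeR adjusted p = 0.0183). Those groups did not overlap, but the call was lost when TAZKo hypoxia sample 1 or 2 or WT hypoxia sample 2 or 3 was left out, with an edgeR adjusted p of up to 0.0629. Arnt2, a dimer partner of the HIF subunits, had the largest difference, from 103, 90.3 and 86.4 CPM in WT to 43.2, 50.7 and 42.8 CPM in TAZKo (-1.03 ± 0.09, edgeR adjusted p = 1.54e-06). The usual partner Arnt was at 146, 131 and 138 CPM in WT and 137, 148 and 139.7 CPM in TAZKo and overlapped (0.04 ± 0.06).

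Among the enzymes that sense oxygen, Hif1an, the asparaginyl hydroxylase that blocks HIF's activation domain, was at 136, 124 and 124 CPM in WT and 99.1, 102 and 96.8 CPM in TAZKo (-0.36 ± 0.06, edgeR adjusted p = 0.000294). Egln1, the main prolyl hydroxylase, was at 628, 598 and 584 CPM in WT and 536, 532 and 489.8 CPM in TAZKo (-0.22 ± 0.06, edgeR adjusted p = 0.00999). Vhl, the recognition subunit of the ligase that degrades HIF, was lower by a similar amount, 121, 112 and 113 CPM in WT and 102, 103 and 97.2 CPM in TAZKo (-0.19 ± 0.06, edgeR adjusted p = 0.0297). The calls of Vhl and Egln1 were lost in some alternatives, and Hif1an and Egln1 lie on chromosomes 19 and 8. Epas1, which encodes HIF-2 alpha, overlapped between the groups at 34.7, 32.2 and 39.2 CPM in WT and 38.3, 37.1 and 35.1 CPM in TAZKo (0.06 ± 0.09). Egln2 and Egln3 overlapped too, at 0.04 and 0.04, and Hif3a had at most 1 count in a library.

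Of 34 tested HIF-1 targets, 13 were lower in TAZKo and 1 was higher (41.2% called against 32.8% of all genes), with a median of -0.16. The list was not lower in hypoxia alone: in normoxia 17 were lower and 5 higher, with a median of -0.19. The change between conditions was called upward at 3 members and downward at 5. Car9, the hypoxia-marker carbonic anhydrase, was at 11.2, 9.02 and 9.72 CPM in WT and 5.25, 4.53 and 5.401 CPM in TAZKo (-0.98 ± 0.14, edgeR adjusted p = 0.000156). Hilpda, which blocks lipid droplet breakdown in hypoxia, was at 64.6, 56.4 and 58.8 CPM in WT and 41.6, 37.4 and 36.1 CPM in TAZKo (-0.64 ± 0.08). The groups did not overlap at either gene, as at 50% of all tested genes. In normoxia Car9 and Hilpda differed by 0.10 and -0.05, neither called, and the change between conditions was called for both (edgeR adjusted p = 0.0179 and 0.0292). The only member called higher was P4ha1, a collagen prolyl hydroxylase on chromosome 10, at 476, 435 and 479 CPM in WT and 601, 561 and 569.9 CPM in TAZKo (0.32 ± 0.05, edgeR adjusted p = 0.000591). The classical targets Vegfa (-0.24), Pdk1 (0.07), Bnip3 (-0.07), Ldha (-0.07) and Pgk1 (0.07) were not called.

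Glycolysis showed 7 lower and 2 higher of 19 in hypoxia (47.4% called, against 32.8% of all genes), with a median of -0.14. In normoxia the list lay further down, with 13 lower, 1 higher and a median of -0.36. The change between conditions was called at 1 member, upward. Hk2, the inducible hexokinase, was at 187, 205 and 216 CPM in WT and 160.2, 171 and 161 CPM in TAZKo (-0.31 ± 0.07), while Hk1, the constitutive form on chromosome 10, was at 442, 413 and 437 CPM in WT and 526, 539 and 489 CPM in TAZKo (0.27 ± 0.08). Aldoc (-0.26) and Pgam1 (-0.34) were lower, though Pgam1 shares 41.5% of its words with other transcripts. The call of Aldoc was lost under 8 alternatives and that of Hk1 under 3. Both genes called higher in hypoxia lie on chromosome 10, and off chromosomes 8, 10, 18 and 19 none of 16 was called higher and 6 were lower. Without WT hypoxia sample 1, 4 were lower and 1 was higher. Without TAZKo hypoxia sample 3 also 4 were lower. With other single libraries left out, 0 to 2 were higher and up to 10 lower.

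Genes of the integrated stress response driven by ATF4, and the serine and one-carbon enzymes it controls, were mostly higher in TAZKo, but less so than in normoxia. In hypoxia 21 of 34 were higher and 6 lower, with a median of 0.40, against 15.8% of all tested genes higher and 16.9% lower. In normoxia 30 were higher and 1 lower, with a median of 0.97. The change between the conditions was called at 15 genes, all of them downward. The window of Asns, from chr6:7693210-7693459 (minus strand), carries the ATF4 element TGATGAAA in capitals and is shown as the textbook example of this control.
Asns: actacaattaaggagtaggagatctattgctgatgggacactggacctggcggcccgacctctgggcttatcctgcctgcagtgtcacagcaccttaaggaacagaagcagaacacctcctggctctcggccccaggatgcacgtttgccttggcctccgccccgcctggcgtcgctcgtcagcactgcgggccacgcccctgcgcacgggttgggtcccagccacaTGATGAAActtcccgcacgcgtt
TGATGNAA on either strand was in 25.7% of 35 windows of the list and in 3.45% of all windows. Asns, asparagine synthetase, was at 197, 228 and 241 CPM in WT and 378, 371 and 364 CPM in TAZKo (0.74 ± 0.08, edgeR adjusted p = 7.79e-06).

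The mitochondrial one-carbon enzyme Aldh1l2 (ENSMUSG00000020256, chromosome 10, 83487450 to 83534140) had the largest increase of the list, from 92.1, 94.4 and 103 CPM in WT to 404, 400.3 and 381 CPM in TAZKo (2.03 ± 0.06, edgeR adjusted p = 1.68e-10). Cth, which makes cysteine from cystathionine, was at 15.7, 19.97 and 23.2 CPM in WT and 56.6, 57.3 and 50.4 CPM in TAZKo (1.47 ± 0.12, edgeR adjusted p = 1.16e-06). Pycr1, of proline synthesis, was at 24.96, 27.6 and 27.1 CPM in WT and 55.4, 53.3 and 55.6 CPM in TAZKo (1.04 ± 0.07). The serine pathway enzymes moved the same way: Phgdh by 0.53, Psat1 by 0.64, Psph by 0.61, Shmt2 by 0.78 and Mthfd2 by 0.28. Slc7a11, the cystine importer, was at 11.6, 18.4 and 19.1 CPM in WT and 30.96, 30.1 and 30.04 CPM in TAZKo (0.88 ± 0.17). Its normoxia difference was 2.30. Aldh1l2 overlaps an antisense gene over 14.1% of its exons. Phgdh shares 63.1% of its 50-base words with other transcripts, so its counts are less certain.

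The 6 lower of 34 are near the share of all genes called lower. Atf3, a stress-induced repressor, was at 100.5, 102 and 129.7 CPM in WT and 49.7, 44.9 and 40.8 CPM in TAZKo (-1.30 ± 0.10, edgeR adjusted p = 5.87e-07). Fgf21, a hormone that cells under mitochondrial stress secrete, was at 19.3, 14.2 and 19.2 CPM in WT and 13.9, 9.93 and 9.23 CPM in TAZKo (-0.69 ± 0.15, edgeR adjusted p = 0.00305). Both went the other way in normoxia, where they were higher in TAZKo by 0.48 and 1.10. Ppp1r15a, which ends the translation block, was lower (-0.68), as were Cebpb (-0.44) and the transporter chain Slc3a2 (-0.39). Vldlr, a lipoprotein receptor, was very low in TAZKo, at 10.8, 9.56 and 9.75 CPM in WT and 0.340, 0.138 and 0.279 CPM in TAZKo (-5.33 ± 0.21). WT hypoxia sample 1 was the lowest WT library at 26 of the 34 genes, and without it 18 were called higher. Among cytosolic tRNA synthetases, further ATF4 targets, 9 of 20 were higher and 3 lower (60% called, against 32.8% of all genes). The increases were led by Mars at 0.54, Yars at 0.43 and Sars at 0.40.

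Immediate early genes, the transient first responders to growth factors and stress, were lower in TAZKo in hypoxia. This list was chosen after values had been seen. Of 26 tested, 17 were lower and 0 higher (median -0.45; 17 and 0 by DESeq2, 18 and 0 at an unadjusted p under 0.05; 16.9% of all tested genes were lower), whereas in normoxia 11 were higher and 6 lower (median 0.22). The change between conditions was called at 12, all downward. Fos was at 10.9, 11.5 and 16.99 CPM in WT and 8.99, 8.06 and 6.73 CPM in TAZKo (-0.75 ± 0.17, edgeR adjusted p = 0.00468), against a normoxia difference of 1.03. Jun, its dimer partner, was at 115, 130.3 and 151 CPM in WT and 100.3, 100.4 and 92.7 CPM in TAZKo (-0.44 ± 0.09), against 0.40 in normoxia. Ier3 was at 342, 306 and 355 CPM in WT and 157, 153 and 149.8 CPM in TAZKo (-1.12 ± 0.07). At Fos and Jun WT sample 3 was the highest library. Leaving out WT hypoxia sample 1 gave 18 lower.

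The YAP targets Ccn2 and Ccn1, matricellular proteins often induced with this group, reversed in the same way. Ccn2 (ENSMUSG00000019997, chromosome 10, 24595442 to 24598683) was at 73.6, 99.4 and 106 CPM in WT and 37.7, 42.5 and 35.9 CPM in TAZKo in hypoxia (-1.27 ± 0.11, edgeR adjusted p = 2.16e-06), but 0.48 in normoxia. Ccn1 was at 372, 412 and 463 CPM in WT and 255, 257 and 258 CPM in TAZKo (-0.70 ± 0.07), but 0.90 in normoxia. Yap1, the coactivator, was at 199.9, 199.7 and 201 CPM in WT and 125, 139 and 131 CPM in TAZKo (-0.61 ± 0.07) and -0.54 in normoxia, so it was lower in both. Of the 17 tested genes of the YAP and TEAD list, 5 were lower and 1 higher, and its 35.3% called is near the 32.8% of all genes. Without WT hypoxia sample 1, 8 were lower and 0 higher. Without WT normoxia sample 1, 3 were higher. Ccn2 overlaps an antisense gene over 23.2% of its exons.

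**Figure D4:**
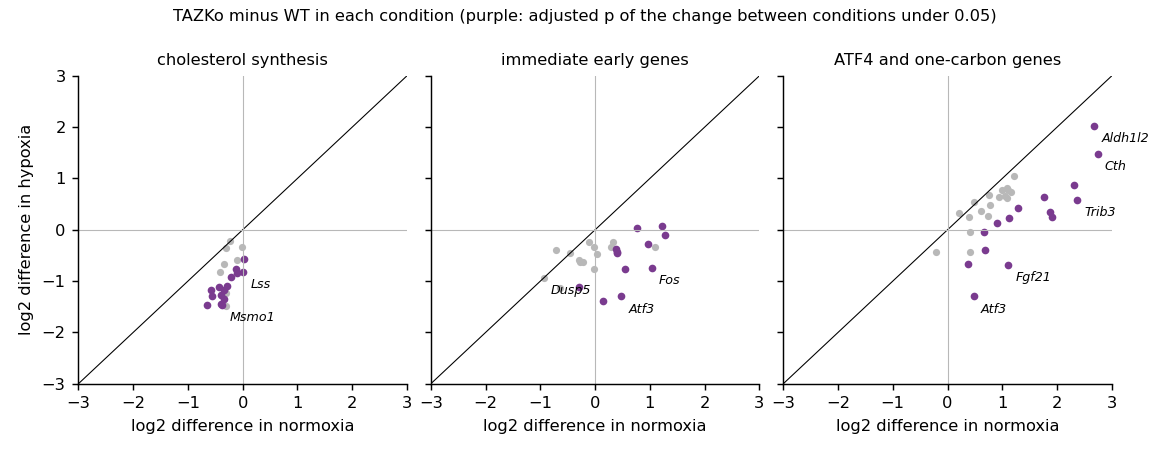
Log2 difference (TAZKo minus WT) in hypoxia against that in normoxia for the tested genes of 3 lists; each point is a gene, the diagonal marks equal differences, and purple points had an adjusted p under 0.05 for the change between conditions. Most points of all 3 lists lie under the diagonal: Fos moves from 1.03 in normoxia to -0.75 in hypoxia, Lss from 0.01 to -0.82 and Trib3 from 2.37 to 0.59.

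Interferon-stimulated and antigen-processing genes were higher in TAZKo. Of 33 tested, 22 were higher and 3 lower (median 0.70), against 15.8% and 16.9% of all tested genes, and in normoxia 21 were higher, also with a median of 0.70. The window of Gbp2, from chr3:142620413-142620662 (plus strand), and that of B2m, from chr2:122147437-122147686 (plus strand), carry in capitals the interferon-stimulated response element, matched on either strand as GAAA, any 2 bases and GAAA again.
Gbp2: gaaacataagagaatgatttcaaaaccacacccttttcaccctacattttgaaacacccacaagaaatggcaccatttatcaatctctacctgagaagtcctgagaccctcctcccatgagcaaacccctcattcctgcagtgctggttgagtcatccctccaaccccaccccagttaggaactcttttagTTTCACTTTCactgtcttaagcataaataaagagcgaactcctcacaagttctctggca
B2m: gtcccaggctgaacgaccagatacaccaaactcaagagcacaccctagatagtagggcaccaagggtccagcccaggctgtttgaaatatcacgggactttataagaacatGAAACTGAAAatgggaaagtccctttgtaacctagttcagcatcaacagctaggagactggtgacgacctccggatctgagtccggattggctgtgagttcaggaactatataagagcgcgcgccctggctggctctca
This motif was in 35.3% of 34 windows of the list and in 2.98% of all windows. Gbp2, an interferon-induced GTPase, was at 1.95, 2.56 and 3.17 CPM in WT and 8.51, 8.61 and 9.897 CPM in TAZKo (1.79 ± 0.14, edgeR adjusted p = 7.37e-07). B2m, the light chain of class I antigen-presenting molecules, was at 168, 174 and 202 CPM in WT and 245, 232 and 266 CPM in TAZKo (0.45 ± 0.09).

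The peptide transporter of antigen presentation, Tap2, was at 6.203, 5.56 and 4.29 CPM in WT and 15.5, 15.2 and 16.3 CPM in TAZKo (1.56 ± 0.12, edgeR adjusted p = 4.38e-07). Oasl2, of the antiviral oligoadenylate synthetase family, was at 4.002, 4.08 and 4.62 CPM in WT and 12.7, 12.5 and 12.3 CPM in TAZKo (1.56 ± 0.09). The transcription factors were higher by less: Irf7 by 1.11, Irf9 by 0.39 and Irf1 by 0.25. The 3 lower genes were Ifit2, H2-K1 and Cxcl10. The lower count was 5 without WT hypoxia sample 1. Ifit2, an inhibitor of viral translation, was at 34.3, 29.97 and 30.7 CPM in WT and 19.1, 19.2 and 19.5 CPM in TAZKo (-0.71 ± 0.09). H2-K1, a class I heavy chain, was at 151, 150.2 and 163 CPM in WT and 109, 97.8 and 97.99 CPM in TAZKo (-0.61 ± 0.08), while its neighbour in function H2-D1 was higher, at 55.8, 53.7 and 54.5 CPM in WT and 107, 106 and 93.9 CPM in TAZKo (0.91 ± 0.10). Reads can be shared between class I heavy chains, so their split is uncertain. All 3 lower genes had changes between conditions that were called. Cd74, the class II invariant chain on chromosome 18, was also higher, at 3.15, 3.14 and 2.87 CPM in WT and 11.7, 11.6 and 11.01 CPM in TAZKo (1.90 ± 0.13).

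Matrix genes differed in both directions with some very large decreases. Of 21 tested collagen chains, 6 were higher and 6 lower (57.1% called, against 32.8% of all genes). Col8a1, a short-chain collagen (ENSMUSG00000068196, chromosome 16, 57624258 to 57754737), was at 37.1, 37.1 and 37.9 CPM in WT and 0.875, 0.519 and 0.662 CPM in TAZKo (-5.80 ± 0.14, edgeR adjusted p = 1.27e-11). Col1a1, the main chain of collagen I, was at 4127, 3197 and 3491 CPM in WT and 1386, 1426 and 1316 CPM in TAZKo (-1.39 ± 0.10, edgeR adjusted p = 3.06e-07), and is itself one of the 12 fibroblast markers summed above. Col5a2, of the fibril-nucleating collagen V, was at 2569, 2129 and 2061 CPM in WT and 1386, 1474 and 1306 CPM in TAZKo (-0.70 ± 0.08). In the other direction, Col16a1 was at 108, 97.9 and 106 CPM in WT and 187, 182 and 180.5 CPM in TAZKo (0.81 ± 0.11). The collagen VI chains Col6a1 (0.68) and Col6a2 (0.46), both on chromosome 10, and Col5a3 (0.69) were higher too.

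Of 20 tested proteoglycans and matrix glycoproteins, 6 were higher and 5 lower (55% called, against 32.8% of all genes). Bgn, the small proteoglycan biglycan, was at 135, 100.3 and 104 CPM in WT and 6.61, 5.78 and 6.48 CPM in TAZKo (-4.17 ± 0.12, edgeR adjusted p = 1.08e-10). Ogn, osteoglycin (ENSMUSG00000021390, chromosome 13, 49608046 to 49624501), was among the largest increases, from 2.45, 2.65 and 2.11 CPM in WT to 12.9, 13.8 and 15.4 CPM in TAZKo (2.56 ± 0.27, edgeR adjusted p = 8.86e-06). Fbn1, the microfibril protein fibrillin, was at 36.8, 38.4 and 38.5 CPM in WT and 14.4, 14.5 and 13.2 CPM in TAZKo (-1.43 ± 0.07). These 3 genes were clear of overlap, as were Tnc, the injury-associated tenascin (-1.02), Fbln2 (0.64) and 50% of all tested genes. Without WT hypoxia sample 1, 9 were higher, and Fmod, whose libraries overlap (197, 128 and 119 CPM in WT, 200.4, 196 and 191 CPM in TAZKo), was called only marginally (edgeR adjusted p = 0.0452).

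Enzymes that build and cut matrix were likewise split. Of 13 hydroxylases and lysyl oxidases 4 were higher and 4 lower (61.5% called, against 32.8% of all genes). Loxl4, a collagen crosslinking oxidase on chromosome 19, was at 18.9, 18.5 and 22.9 CPM in WT and 83.5, 86.1 and 77.7 CPM in TAZKo (2.03 ± 0.08, edgeR adjusted p = 9.69e-10), although the median of its chromosome was negative. Plod1, a lysyl hydroxylase, was at 87.4, 79.2 and 86.1 CPM in WT and 133, 130.4 and 121 CPM in TAZKo (0.60 ± 0.08), with 0.02 in normoxia. Of 24 tested proteases and inhibitors, 7 were higher and 9 lower (66.7% called, against the same 32.8%). The ADAMTS proteases differed in both directions. Adamts7 was at 53.98, 33.6 and 36.9 CPM in WT and 15.1, 14.4 and 16.4 CPM in TAZKo (-1.43 ± 0.14), and Adamts4 (-1.05), Adamts1 (-0.97), Adamts10 (-0.77) and Adamts5 (-0.51) were lower too. Adamts14 (0.46) and Adamts2 (0.26) were higher, Adamts6 (0.07) and Adamts9 (-0.30) were not called, and Adamts8, Adamts12 and Adamts15 were too low to test. Mmp15, a membrane-bound protease, was higher (5.403, 5.34 and 5.42 CPM in WT, 8.94, 8.86 and 8.89 CPM in TAZKo, 0.72 ± 0.10). The inhibitors divided, with Timp2 higher by 0.62 and Timp1 lower (-0.51).

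Several secreted signals were at or under 3 counts in every TAZKo hypoxia library. In all, 26 genes had at most 3 counts in each TAZKo hypoxia library and at least 1 CPM in each WT library, and 1 gene (Gm15413) had the reverse. Of the 26, 25 are protein coding and 23 were also at or under the floor in TAZKo normoxia libraries. Igfbp3, the main carrier of IGF in serum (ENSMUSG00000020427, chromosome 11, 7206086 to 7213923), was at 14.9, 8.97 and 8.44 CPM in WT and had 0 counts in each TAZKo library, at least 91.3-fold lower when set against 3 counts per library. Wnt5a, the non-canonical Wnt ligand (ENSMUSG00000021994, chromosome 14, 28504750 to 28527448), was at 10.9, 9.11 and 9.39 CPM in WT and 0, 0.0346 and 0 CPM in TAZKo, at least 83.03-fold lower on the same floor. Gdf2, which encodes BMP9, was at least 36.04-fold lower, and Gdf6, another BMP-family ligand, at least 19.5-fold. Flt4, the lymphatic VEGF receptor, was at least 46.9-fold lower, the glycogen phosphorylase Pygl at least 70.1-fold, the homeobox gene Hoxd8 at least 50.3-fold and the kinase Hunk at least 47.2-fold. Gdf2, Gdf6, Flt4, Pygl and Hunk were singled out after their values were seen.

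Of the IGF axis, 4 of 16 were higher and 4 lower (50% called, against 32.8% of all genes). Igfbp6 was at 125, 99.1 and 105 CPM in WT and 195, 189 and 191 CPM in TAZKo (0.81 ± 0.11), with a normoxia difference of -0.08 and a called change between conditions (edgeR adjusted p = 0.00777). Igfbp4 was higher by 0.89, and the insulin receptor substrates diverged, Irs1 at 0.58 and Irs2 at -0.38. Wnt genes counted 10 higher and 9 lower of 35 (54.3% called, against the same 32.8%). Sfrp1, a secreted Wnt inhibitor, was at 19.4, 16.3 and 16.5 CPM in WT and 0.340, 0.346 and 0.592 CPM in TAZKo (-5.31 ± 0.20), and Wnt5b was at 5.503, 5.92 and 4.84 CPM in WT and 0.340, 0.657 and 0.348 CPM in TAZKo (-3.54 ± 0.21). The ligand Wnt4 was higher, 109.6, 100.1 and 94.3 CPM in WT and 184, 186 and 177 CPM in TAZKo (0.85 ± 0.10), and the receptors Fzd5, Fzd1 and Fzd4 were higher by 0.61, 0.50 and 0.43. Wnt ligands thus differed in both directions.

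TGF-beta and BMP genes counted 12 higher and 4 lower of 37 (43.2% called, against 32.8% of all genes). Grem1, a secreted BMP antagonist, was at 5.15, 3.903 and 5.68 CPM in WT and 18.95, 19.3 and 18.2 CPM in TAZKo (1.93 ± 0.11, edgeR adjusted p = 4.22e-08). The ligands Bmp7 and Bmp2 were higher by 1.43 ± 0.13 and 1.17 ± 0.08, and Bmp2 stood at 20.6, 18.7 and 16.1 CPM in WT and 39.4, 40.7 and 43.5 CPM in TAZKo. Id1 and Id3, direct BMP targets, were higher by 0.39 and 0.51. The ligand Tgfb2 was lower (-0.76) while Tgfb1 and Tgfb3 were higher by 0.57 and 0.47. Of 12 tested contractile genes, 5 were higher and 4 lower (75% called, against 32.8% of all genes). Myl9, a myosin light chain, was at 35.9, 30.2 and 27.7 CPM in WT and 4.47, 4.25 and 4.25 CPM in TAZKo (-2.85 ± 0.14). Cnn2 was higher by 0.66. Tagln was lower (-1.32), but 67.9% of its exons overlap an antisense gene.

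Other genes with the largest differences, among those of at least 10 CPM, belong to no list of signals or matrix. Cacna1c, the pore subunit of the L-type calcium channel, was at 7.103, 5.38 and 5.31 CPM in WT and 25.5, 27.9 and 25.8 CPM in TAZKo (2.16 ± 0.11, edgeR adjusted p = 8.69e-09). Susd2 was at 3.65, 3.41 and 4.84 CPM in WT and 20.4, 21.1 and 22.6 CPM in TAZKo (2.41 ± 0.13). Atp2a3, a calcium pump of the endoplasmic reticulum, was at 2.65, 3.77 and 4.91 CPM in WT and 14.5, 14.5 and 12.9 CPM in TAZKo (1.86 ± 0.16). The remaining top increases among called genes of at least 10 CPM without overlap were Pde8a (1.98), Serpinf1 (1.89), Chst1 (1.88) and P2rx3 (1.75). Pde8a is a cyclic AMP phosphodiesterase, Chst1 a sulfotransferase and P2rx3 a purinergic channel.

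On the side of decreases, Epb41l3, a membrane skeleton protein, was at 95.1, 93.6 and 95.2 CPM in WT and 2.92, 2.87 and 2.33 CPM in TAZKo (-5.13 ± 0.09, edgeR adjusted p = 2.27e-13). Cd34, a sialomucin of progenitor and vascular cells, was at 63.8, 52.1 and 49.4 CPM in WT and 1.51, 0.865 and 1.08 CPM in TAZKo (-5.61 ± 0.16). Uchl1, a deubiquitinase, was at 20.6, 16.6 and 16.6 CPM in WT and 0.680, 0.934 and 0.767 CPM in TAZKo (-4.47 ± 0.15). Tmem108 (-5.52), Kbtbd11 (-5.43) and Zbtb8b (-4.43) were similarly lower. Among imprinted genes, 3 were higher and 6 lower of 18 (50% called, against 32.8% of all genes). Peg3, a paternally expressed zinc finger gene, was at 15.9, 18.98 and 21.8 CPM in WT and 0.194, 0.104 and 0.105 CPM in TAZKo (-7.16 ± 0.28, edgeR adjusted p = 9.69e-10), and Peg10 was lower (-1.69). Hox genes, which record body position, counted 5 higher and 7 lower of 29 (41.4% called, against the same 32.8%). Apart from Hoxd8 those of at least 5 CPM differed by -0.52 (Hoxa10) to 0.36 (Hoxb9). Without WT hypoxia sample 1, 3 Hox genes were lower.

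Most respiratory chain genes were not called. Of 77 tested nuclear respiratory chain genes, 8 were higher and 7 lower, 19.5% against 32.8% of all genes, with a median of -0.02. Ndufv1, a complex I subunit on chromosome 19, was at 172, 154 and 143 CPM in WT and 116, 115 and 107 CPM in TAZKo (-0.47 ± 0.09, edgeR adjusted p = 0.00109). Ndufa12, another on chromosome 10, was at 16.3, 19.9 and 14.8 CPM in WT and 23.8, 22.3 and 23.3 CPM in TAZKo (0.45 ± 0.09, edgeR adjusted p = 0.00235). Cox6a2, a muscle form of a complex IV subunit, was the 1 member at least 2-fold apart, at a low 0.175 CPM on average in WT and 0.541 CPM in TAZKo (1.62 ± 0.35). Ndufv1 and Ndufa12 differed in the direction of their chromosome's median, and off chromosomes 8, 10, 18 and 19, 9 of 63 were called. Without WT normoxia sample 1, 13 of the list were higher and 16 lower. Its higher count was 2 without WT hypoxia sample 2 or 3, and without WT hypoxia sample 1 or TAZKo hypoxia sample 1 or 2, 4 were lower. The list of mitochondrially encoded genes has 13 members, of which 6 were not tested. Of the 7 tested, 0 were called by edgeR or DESeq2 and 0 had an unadjusted p under 0.05. When only the 6 hypoxia samples were fitted, 2 were called higher. The genes mt-Co2, mt-Co3, mt-Atp6, mt-Nd4l and mt-Nd3 share 100%, 99.9%, 99.5%, 98.8% and 98% of their words with other transcripts. For mt-Nd4 and mt-Co1 the share is 62.2% and 51.1%, and for mt-Cytb it is 0%. Counts of genes with shared words are less certain, and the result covers the 7 tested genes only. Of the 7, mt-Cytb had the lowest adjusted p, at 0.132 (2811, 2859 and 2677 CPM in WT, 3339.9, 3414 and 3444 CPM in TAZKo).

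Cardiolipin genes other than Taz showed 1 increase and 1 decrease of 14 tested with Taz (21.4% called, against 32.8% of all genes). Without WT normoxia sample 1 the list had 3 higher and 3 lower, without WT hypoxia sample 3 it had 1 and 2, and without TAZKo hypoxia sample 1, 2 or 3 it had 1 and 1. Cds2, an early enzyme of the route, was at 99.7, 77.4 and 84.1 CPM in WT and 105, 104 and 102 CPM in TAZKo (0.25 ± 0.08, edgeR adjusted p = 0.0248), a call lost when some libraries were left out. Pla2g6, a phospholipase that can cut cardiolipin, was at 77.1, 63.1 and 69.7 CPM in WT and 54.1, 53.7 and 51.1 CPM in TAZKo (-0.40 ± 0.09, edgeR adjusted p = 0.00344). Crls1, cardiolipin synthase, did not pass (41.1, 45.5 and 41.2 CPM in WT, 51.2, 52.5 and 54.4 CPM in TAZKo, 0.31 ± 0.13, edgeR adjusted p = 0.0936), although its groups did not overlap. The alternative remodelling enzymes Lclat1 (-0.08 ± 0.08) and Hadha (0.01 ± 0.05) overlapped. The upstream enzymes Pgs1 (0.03), Ptpmt1 (0.15) and Tamm41 (-0.26), the carriers Prelid1 (0.03), Triap1 (0.05) and Plscr3 (-0.15), and the lipases Pnpla8 (0.05) and Pld6 (0.32) were not called, and Cds1 was too low to test. Crls1 and Tamm41 gained the call under 6 alternatives each, and Ptpmt1 and Plscr3 under 1 each.

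Fatty acid oxidation had 4 higher and 2 lower of 17 (35.3%, near the 32.8% of all genes), with 2 higher without WT hypoxia sample 3 and 4 lower without WT normoxia sample 1. Cpt1a, which admits fatty acids to mitochondria, was at 135, 125 and 122 CPM in WT and 96.6, 103 and 94.99 CPM in TAZKo (-0.37 ± 0.06), and its inner partner Cpt2 was at 31.2, 30.6 and 30.7 CPM in WT and 38.7, 39.1 and 37.7 CPM in TAZKo (0.32 ± 0.06). Antioxidant genes had 3 higher and 5 lower of 23 (34.8%, also near that share), with 8 lower without WT normoxia sample 1 and 3 lower without TAZKo hypoxia sample 3. Hmox1, the heme-degrading enzyme on chromosome 8, was at 315, 277 and 320.2 CPM in WT and 144, 149.5 and 142 CPM in TAZKo (-1.07 ± 0.08, edgeR adjusted p = 3.06e-07), while Nqo1, another NRF2 target on the same chromosome, was at 20.3, 21.8 and 21.8 CPM in WT and 28.2, 31.6 and 31.3 CPM in TAZKo (0.51 ± 0.07). The list thus had members apart in each direction. Nnt, the mitochondrial transhydrogenase, was at 92.6, 88.7 and 90.5 CPM in WT and 80.97, 80.2 and 80.5 CPM in TAZKo (-0.17 ± 0.05, edgeR adjusted p = 0.0261), but 96.3% of its words are shared with other transcripts. The call of Nnt was lost under 5 alternatives.

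DNA replication and mitosis genes were mostly lower where they differed, 13 lower and 1 higher of 33 (42.4% called, against 32.8% of all genes). Mcm6, a subunit of the replicative helicase, was at 424, 383 and 378 CPM in WT and 221, 221 and 215 CPM in TAZKo (-0.85 ± 0.06, edgeR adjusted p = 2.81e-07). Rrm2, of the enzyme that makes deoxynucleotides, was at 229, 256 and 255 CPM in WT and 164, 163 and 169 CPM in TAZKo (-0.58 ± 0.06). Cdk1, the mitotic kinase on chromosome 10, was the 1 higher member (0.24 ± 0.05). Of 22 p53 targets and cell cycle inhibitors, 6 were higher and 5 lower (50% called, against the same 32.8%). Perp, a p53 effector on chromosome 10, was at 33.2, 39.5 and 38.8 CPM in WT and 119, 133 and 117 CPM in TAZKo (1.72 ± 0.09, edgeR adjusted p = 8.69e-09). Cdkn1a, which encodes p21, was at 202, 199 and 246 CPM in WT and 162, 152 and 142 CPM in TAZKo (-0.51 ± 0.09), the reverse of its normoxia difference of 0.66.

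NF-kB genes had 6 higher and 8 lower of 26 (53.8% called, against 32.8% of all genes). Ptgs2, the inducible cyclooxygenase, was at 56.03, 57.03 and 75.5 CPM in WT and 18.1, 17.1 and 17.7 CPM in TAZKo (-1.83 ± 0.14, edgeR adjusted p = 5.17e-07). Cxcl5, a neutrophil chemokine, was at 142, 163 and 146 CPM in WT and 65.8, 72.7 and 80.2 CPM in TAZKo (-1.05 ± 0.18). Lcn2, an iron-binding acute phase protein, was at 1.101, 1.53 and 1.42 CPM in WT and 6.999, 6.399 and 6.76 CPM in TAZKo (2.30 ± 0.18, edgeR adjusted p = 6.32e-07). These 3 were without overlap, like 50% of all tested genes, and the cytokine Csf1 was higher by 0.65. Of 7 tested voltage-gated calcium channel genes, 2 were higher and 2 lower (57.1% called, against the same 32.8%). Cacna1g, a T-type pore, was lower (-0.39), and Cacna1a was higher by 0.42. Both calls were lost when some libraries were left out, and without WT hypoxia sample 1 no channel gene was called lower.

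The differences were not spread evenly over chromosomes. The median log2 difference was 0.286 ± 0.0062 (SD of the 3 TAZKo libraries) over 676 tested genes of chromosome 10, of which 52.5% were called. It was -0.281 ± 0.0066 over 360 genes of chromosome 18 and -0.282 ± 0.0056 over 492 of chromosome 19, where 52.5% and 53.9% were called. Chromosome 8 was at -0.145 with 37.6% called and chromosome 4 at 0.125 with 34.8%. Chromosome 1 was at -0.0587 with 40.2% called, 128 genes higher and 222 lower. The other autosomes and the X lay between -0.0856 and 0.0615. On chromosome 10, 319 genes were higher and 36 lower. On chromosome 18, 16 were higher and 173 lower, and on chromosome 19, 26 and 239. Off chromosomes 8, 10, 18 and 19, 3615 of 12084 genes (29.9%) were called, 1859 higher and 1756 lower. There the interferon list kept 20 higher of 27, the immediate early list 14 lower of 17, the ATF4 list 13 higher of 22 and cholesterol synthesis 18 lower of 18. That set still holds chromosome 4, with 260 genes higher and 59 lower, and chromosome 1, so it is not free of chromosome shifts. Chromosomes 10, 18 and 19 also stood out in normoxia, with 0.314, -0.218 and -0.268. What lies behind the chromosome medians was not tested.

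**Figure D5:**
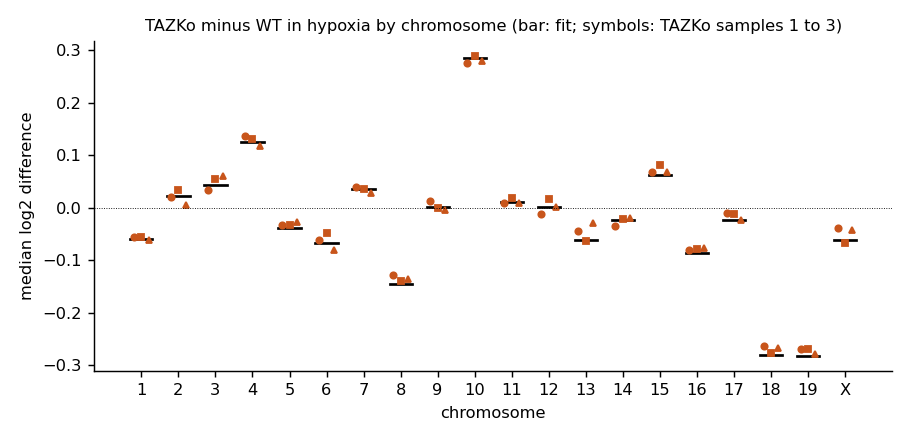
Median log2 difference (TAZKo minus WT in hypoxia) of the tested genes of each chromosome; the bar is the median of the fitted values and the 3 symbols are TAZKo samples 1 to 3, each against the mean of the 3 WT libraries. Chromosome 10 lies at 0.286 and chromosomes 18 and 19 near -0.28 in every TAZKo library, while most other chromosomes lie within 0.1 of 0.

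Set against normoxia, most hypoxia differences had a counterpart. The normoxia comparison called 4384 genes (30.4%). Of the 2283 genes higher in TAZKo in hypoxia, 1413 were also higher in normoxia, 10 were lower and 860 were not called, and of the 2440 lower genes 1401 were also lower, 40 were higher and 999 were not called. Being called in only 1 condition does not show a difference, and the change between conditions was called at 350 genes (2.43%). Same-numbered normoxia libraries deviated together, and with the replicate number as a block 639 genes were called, 349 of the 350 among them. With a block fitted within each condition 621 were called, 346 of them shared. It was called for 35 of the 860 and 63 of the 999. The genes that were called in hypoxia and changed most between conditions included Podn, a small proteoglycan, at 6.05, 5.38 and 4.95 CPM in WT and 12.005, 10.4 and 12.3 CPM in TAZKo (1.09 in hypoxia, -0.18 in normoxia). Bst1, an enzyme that consumes NAD, was at 17.3, 15.7 and 17.1 CPM in WT and 10.4, 9.79 and 9.55 CPM in TAZKo, and its decrease was smaller in hypoxia (-0.76) than in normoxia (-2.19). Trib3, a pseudokinase induced by ATF4, went the other way, at 147, 158 and 181 CPM in WT and 259.7, 242 and 229 CPM in TAZKo (0.59 against 2.37). The count of changed genes depends on single libraries: without WT hypoxia sample 1 it was 711 and without WT normoxia sample 1 it was 556. Leaving out TAZKo normoxia sample 2 gave 174.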

How the data were processed

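RNA-seq libraries (Illumina TruSeq RNA v2 kit, per the labels' protocols) of 12 samples in 4 groups were used. The authors deposited raw counts per Ensembl gene, 1 table per sample. The build is mm10, per the submitters' processing notes. The aligner, counter, annotation release and use of strand are not given in the sources used here, so reads of overlapping antisense genes cannot be told apart. The tables hold 48709 gene IDs. Symbols and coordinates were matched by ID to GENCODE on GRCm38 for 48349, and 360 had none.

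Groups came from the labels. The filterByExpr function dropped weakly counted genes and left 14408. TMM-scaled counts of all 12 samples entered the quasi-likelihood test of edgeR 4.0.16 (R 4.3.3, limma 3.58.1), where each group had its own coefficient and nothing else was modelled. The 12 samples share 1 estimate of the spread. P-values were adjusted by Benjamini-Hochberg over all tested genes, with a threshold of 0.05. SE is the log2 difference divided by the square root of F. Floors are 3 counts per library and cover counting error only. On simulated counts of 14180 genes for the hypoxia comparison, 89% of 100 genes changed 1.5-fold and 100% of 100 changed 2-fold were recovered, and 11 of 13980 unchanged genes were called. The changed genes had a mean of at least 5 CPM. Counts were drawn independently, without shifts of whole chromosomes or libraries, and how these rates hold with such shifts was not tested.

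The comparison, the 27 gene lists and the 9 marker lists were chosen with earlier results of these data known. The lists of SREBP-1 targets and fatty acid synthesis, of LXR targets and sterol export, and of immediate early genes were added after values had been seen. Of the named genes, Taz, Hif1a, Epas1, Wwtr1, Nnt and the members of the cardiolipin and oxygen-sensing lists were set by name. The others were the 12 largest increases and decreases among called genes of at least 10 CPM whose libraries did not overlap, up to 3 called members per direction and list of at least 5 CPM, and the 5 largest changes between conditions in each direction. Other list members given in the text were singled out after their values were seen. Reads shared between genes were gauged by 50-base words of the longest transcript. Promoter sequences are from RefSeq, build GRCm38.p6. Alternatives were DESeq2 1.42.0, DESeq2 size factors, upper quartile scaling, library size alone, 2 other filters, the replicate block, lane, the 6 hypoxia samples only, a fold threshold, and leaving out each sample. Leaving out chromosomes 8, 10, 18 and 19 was added after seeing the data. The sample numbers were checked for pairing: deviations from group means correlated between same-numbered normoxia samples at 0.354, 0.149 and 0.228. Differently numbered normoxia samples ran from -0.293 to 0.116, the highest being WT sample 2 with TAZKo sample 3, near the 0.149. This pairing is taken from the data and not from the labels, and samples 2 and 3 are weakly told apart by it. A block within each condition was then added. Some genes of these lists, counted in the list totals, are not reported here by name.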

Additional observations from a re-analysis of the deposited data

Results flagged for a closer look

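Each gene here was named in this comparison and had a genotype difference that itself differed between hypoxia and normoxia (edgeR interaction test, adjusted p under 0.05 across all tested genes). The value is the log2 difference in hypoxia minus that in normoxia, from 3 libraries per group. The number of genes flagged in this way rests partly on single libraries: 350 genes passed, 711 without WT hypoxia sample 1, 556 without WT normoxia sample 1, 174 without TAZKo normoxia sample 2, 177 without WT hypoxia sample 3, 188, 189 and 200 without TAZKo hypoxia sample 2, 1 and 3, 196 and 216 without TAZKo normoxia sample 3 and 1, and 200 without WT hypoxia sample 2.

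Among stress and early response genes Fgf21 was at -1.79, Trib3 at -1.79, Atf3 at -1.78, Fos at -1.78, Ptgs2 at -1.49, Slc7a11 at -1.42, Cth at -1.27, Gadd45a at -1.21, Cdkn1a at -1.17 and Aldh1l2 at -0.65. The antioxidant gene Hmox1 was at -0.46. Among YAP targets Ccn2 was at -1.75 and Ccn1 at -1.60. The sterol genes Msmo1 and Tm7sf2 were at -1.09 and -0.81. HIF-1 targets were at -1.08 (Car9), -0.59 (Hilpda) and 0.38 (P4ha1), and interferon-stimulated genes at -0.92 (Cxcl10), -0.74 (H2-K1) and -0.70 (Ifit2).

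Among matrix genes Podn was at 1.27, Fbn1 at 0.94, Mmp15 at 0.77, Plod1 at 0.58 and Adamts1 at -1.16. Signalling genes were at 0.88 (Igfbp6), 0.58 (Wnt4) and -0.46 (Fzd5). The remaining genes were 2610528A11Rik at -2.10, Zbtb8b at -1.38, Slc38a4 at -1.34, Hoxb9 at -0.45, Bst1 at 1.44, Atp2a3 at 1.07, Inka2 at 1.02, Atp7b at 1.0 and Susd2 at 0.85. Those of 2610528A11Rik, Atp2a3, Atp7b and Bst1 lost the call when some single libraries were left out. With the replicate block, all 38 genes given here were called.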

How the results depend on the processing

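The count of 4723 genes stayed within 1.5 times under other scalings, tests, filters, lane, blocks and the 6 hypoxia samples alone (3780 to 5541), and was 3765 to 6149 with a sample left out. Requiring an absolute log2 difference of at least 1 left 839. Of 155 named genes called, 129 kept the call under every alternative that tested them, 26 lost it at least once and 0 changed direction. The change between conditions was called at 350 genes, but at 578 by DESeq2, 727 with no filter, 639 with the replicate block, 621 with the replicate block within each condition (chosen after seeing the data) and 174 to 711 with a sample left out. Deviations of same-numbered hypoxia samples correlated at 0.055, -0.024 and 0.121, so the numbers were not taken to pair them. In hypoxia, samples 1 of both genotypes were on lane 4, and samples 2 and 3 on lane 5. In normoxia, samples 1 and 2 of both genotypes were on lane 4, and samples 3 on lane 5. The replicate block moved the hypoxia count to 5518 (5519 with the 6 hypoxia samples only, 5541 within each condition), and the normoxia count from 4384 to 5212. Genes at or under the floor in TAZKo numbered 26, but 16 when at most 1 count was allowed and 6 when at least 5 CPM was asked of WT. In WT they numbered 1, and 0 under both. With a mean of at least 5 CPM the medians of chromosomes 18 and 19 were -0.272 and -0.274. With library size alone the medians of chromosomes 4, 8, 10, 18 and 19 were 0.146, -0.126, 0.306, -0.260 and -0.261, and the others ran from -0.0661 to 0.0816. That scaling moved the median of all genes from -0.01 to 0.01. The cause of these moves was not tested. Some list counts rest on 1 library. Lower calls became 1 instead of 3 (tRNA synthetases) and 3 instead of 5 (p53 targets) without TAZKo hypoxia sample 3, and 5 instead of 8 (NF-kB genes) and 3 instead of 5 (p53 targets) without WT hypoxia sample 3. Without WT hypoxia sample 2, higher calls became 4 instead of 7 for matrix proteases. Hox genes had 3 higher, not 5, without TAZKo hypoxia sample 2 or WT hypoxia sample 2 or 3. Counts of 3 or fewer per library limit the folds of the genes at the floor.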

Other observations

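Of the macrophage markers, Lyz2 was called higher in TAZKo, from 0.0726 CPM on average in WT to 0.588 CPM in TAZKo, while Csf1r was called lower, from 5.13 to 2.24 CPM. Of the fibroblast markers S100a4 was at 44.1 CPM on average in WT and 104 CPM in TAZKo, Pdgfrb at 24.3 and 46.0 CPM, and Twist2 at 10.5 and 20.6 CPM. Each of these 3 was called higher by edgeR.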
